A study of Mus musculus with 6 samples.

Results

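Liver X receptor (LXR) targets and genes of cholesterol export were followed in whole mammary glands of wild-type mice and mice with a disrupted Elf5. Elf5 is an ETS-family factor that directs milk-secreting cells. The list held 9 genes. They were the LXR genes Nr1h3 and Nr1h2, the transporters Abca1, Abcg1 and Abcg2, the apolipoprotein gene Apoe, and the LXR targets Mylip, Lpcat3 and Srebf1. Of these, 8 had a probe set annotated to that gene alone, 11 probe sets in all, out of 18193 genes with such a probe set. Nr1h2 was not analysed here. All 8 passed the filter on dim genes. The genes were chosen by their roles with the Elf5 knockout and wild-type signals of these same arrays already known, so their differences are given as a description, with no test.

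RNA came from the glands of 3 wild-type (WT) mice and 3 mice labelled Elf5 KO (KO), with 1 array per animal. The sample labels give pregnancy day 17 for all 6, whereas the series' design text gives lactation day 1, and the stage is left as unsettled here. The labels name no allele, Cre driver, strain or age of the mice. Values are linear signals of an Affymetrix mouse array, which the authors scaled so that each array has the same trimmed mean.

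LXRα, encoded by Nr1h3, and LXRβ, encoded by Nr1h2, are nuclear receptors that bind oxysterols and pair with a retinoid X receptor. When a cell holds much cholesterol they raise transcription of Abca1 and Abcg1, which pass cholesterol to lipoprotein particles outside the cell, and of Apoe, which accepts it. They also raise Mylip, whose product marks the LDL receptor for breakdown, Lpcat3, which places polyunsaturated fatty acids into phospholipids, and Srebf1, a regulator of fatty acid synthesis. Abcg2 is an apical transporter of the milk-secreting epithelium that carries riboflavin and drugs into milk.

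LXR and its partner bind a direct repeat of 2 hexamers with 4 bases between them. RefSeq promoter windows (GRCm38.p6, from 250 bases before to 50 after a start) were searched on both strands for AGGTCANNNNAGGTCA with up to 3 mismatches in its 12 fixed bases. Such a match stood in 21.9% of 32851 windows, so it is common by itself. It stood in 2 of 15 windows of the listed genes, which covered 8 genes and not Abcg1, and these belonged to Abca1 and Srebf1. Among the other LXR targets, Arl4c, Fasn and Rnf145 had one. Those of Abca1 and Srebf1 shared the letters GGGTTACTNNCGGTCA. These letters were set from the Abca1 and Srebf1 matches, and of all 32851 windows only 1 other, that of Fasn, held them (3 windows, 0.00913%). By construction they overlap the direct repeat. The stretches are shown because they are the LXR-type sequences in the promoters of a gene that was higher in the KO (Abca1) and of genes whose groups overlapped (Srebf1 and Fasn). Each is written on the gene's own strand, with the shared site in capitals, where it reads as the reverse complement. A match is a description of letters, not a measured binding site.
Abca1, chr4:53159925-53159984, minus strand, site 67 to 52 bases before the start: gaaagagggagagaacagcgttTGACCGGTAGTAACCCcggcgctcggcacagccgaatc
Srebf1, chr11:60210616-60210675, minus strand, site 182 to 167 bases before a start: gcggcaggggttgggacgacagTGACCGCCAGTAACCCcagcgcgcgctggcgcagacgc
Fasn, chr11:120824735-120824794, minus strand, site 225 to 210 bases before the start: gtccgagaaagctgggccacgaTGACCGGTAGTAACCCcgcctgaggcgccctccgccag

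The KO arrays differed among themselves in a control of RNA integrity. Signals at both ends of the Gapdh transcript, taken as 3' over 5', had a ratio of 0.802 to 1.09 in the 3 WT arrays and KO array 1. This ratio was 3.89 for KO array 2 and 13.6 for KO array 3. For Actb it was 21 in KO array 3 and 1.20 to 2.04 elsewhere. Values over the 4 arrays with a Gapdh ratio under 2, the 3 WT arrays and KO array 1, rest on 1 KO animal. They are given for each of the 8 genes, and for other genes and list medians where the difference changed sign or moved by over 1.5 times. Elf5 itself read 7244 to 12011 in WT and 3128 to 5616 in the KO without overlap. Its difference of -1.06 ± 0.32 (SE) on the log2 scale had a limma adjusted p of 0.109, and 0.0151 in a paired fit that blocks on the replicate number. In the 4 arrays with a low ratio it was -0.66. In this whole-tissue RNA fewer cells of a type and less RNA per cell cannot be told apart.

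Abca1, which moves cholesterol and phospholipid onto lipid-poor apolipoproteins, was the listed gene that differed most. Its brightest probe set read 361, 345 and 417 in WT arrays 1, 2 and 3, and 1537, 1655 and 1634 in KO arrays 1, 2 and 3. All KO values lay far above all WT values, and both groups were tight. The means were 374 ± 38.0 (SD, n = 3) in WT and 1609 ± 62.8 (SD, n = 3) in the KO, a ratio of 4.30. Within same-numbered pairs the ratio ran from 3.92 to 4.80. On the log2(signal + 16) scale, which understates changes of dim genes, Abca1 was higher by 2.06 ± 0.27 (SE), and by 1.997 in the 4 arrays with a low Gapdh ratio. By absolute difference it ranked 85 among the 10916 genes tested.

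The other Abca1 probe sets did not follow in every array. One read 96.5, 97.6 and 89.2 in WT and 237, 474 and 13.7 in KO arrays 1, 2 and 3. The dimmest read 48.7, 51.6 and 27.6 in WT and 96.4, 165 and 6.4 in the KO. Both were thus above every WT array in KO arrays 1 and 2 and below every WT array in KO array 3, the array with the Gapdh ratio of 13.6. Their differences over all arrays were 0.48 ± 0.85 (SE) and 0.42 ± 0.68 (SE), and 1.19 and 0.97 in the 4 arrays with a low ratio. Averaging the 3 probe sets gave Abca1 a difference of 0.99 in place of 2.06. The places of these probe sets along the transcript were not analysed here, and the part of RNA integrity in the low values of KO array 3 was not tested.

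**Figure D1:**
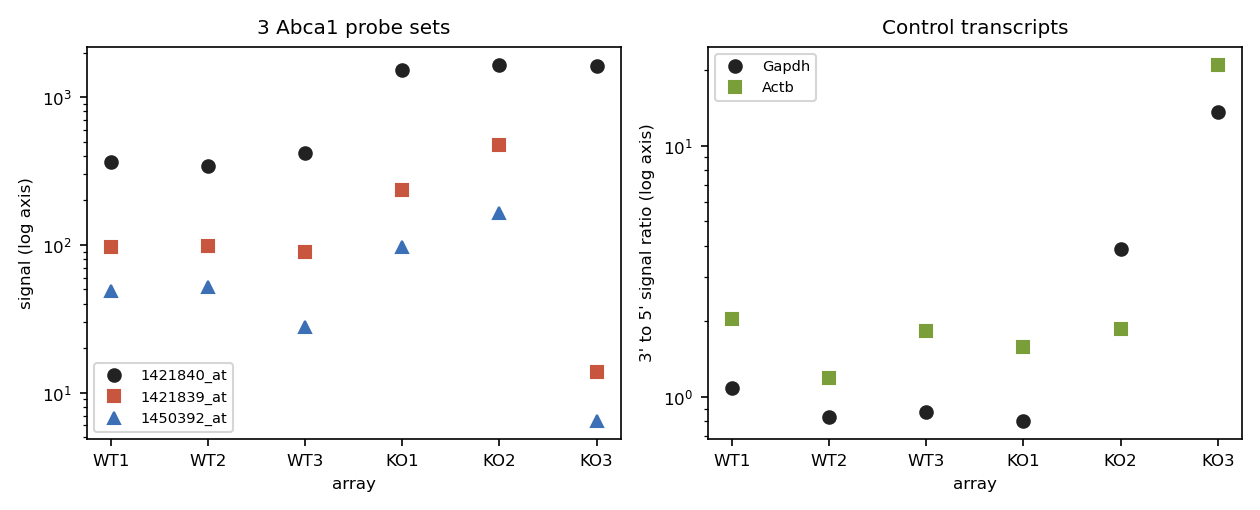
Left, signal (log axis) of the 3 Abca1 probe sets in each array; right, the 3' to 5' signal ratio (log axis) of the Gapdh and Actb control transcripts in the same arrays. The brightest Abca1 probe set sits at 1537 to 1655 in all KO arrays, while the other 2 drop to 13.7 and 6.4 in KO array 3, where the Gapdh ratio is 13.6.

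Abcg1 passes cholesterol to more mature lipoprotein particles. Its brighter probe set read 135, 139 and 177 in WT and 199, 231 and 265 in KO arrays 1, 2 and 3. The groups did not overlap, but the gap between WT array 3 and KO array 1 was narrow. The means were 151 ± 23.0 (SD, n = 3) and 231 ± 32.9 (SD, n = 3), a ratio of 1.54, and the log2 difference was 0.57 ± 0.28 (SE). In the 4 arrays with a low ratio it was 0.38. The dimmer probe set read 27.9, 33.9 and 37.8 in WT and 32.0, 55.7 and 44.3 in the KO. There the groups overlapped, with a difference of 0.27 ± 0.33 (SE), and of -0.03 in the 4 arrays with a low ratio.

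Abcg2 differed in the opposite direction from Abca1. Its single probe set read 8015, 6011 and 6586 in WT arrays 1, 2 and 3, and 4202, 2096 and 2564 in KO arrays 1, 2 and 3. Every KO value was below every WT value, and KO array 1 was the closest to WT. The means were 6871 ± 1032 (SD, n = 3) and 2954 ± 1106 (SD, n = 3), so that the KO stood at 43.0% of WT. The log2 difference was -1.27 ± 0.32 (SE), and -0.70 in the 4 arrays with a low Gapdh ratio. The KO level was 0.524, 0.349 and 0.389 of the WT level in pairs 1, 2 and 3.

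Apoe encodes apolipoprotein E, an acceptor of exported cholesterol made in quantity by macrophages. It read 2599.6, 1768 and 1745 in WT and 6534, 2880.3 and 1489 in KO arrays 1, 2 and 3. KO array 1 was 2.51 times its same-numbered WT array, whereas KO array 3 was the lowest of all 6. The groups overlapped, with means of 2037 ± 487 (SD, n = 3) and 3634 ± 2605 (SD, n = 3). The log2 difference was 0.60 ± 0.48 (SE) over all arrays, 1.70 in the 4 arrays with a low ratio and 0.05 without KO array 1.

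Nr1h3, the gene of LXRα, read 167, 132 and 166 in WT and 197, 132 and 90.4 in KO arrays 1, 2 and 3. Its groups overlapped, with KO array 1 the highest and KO array 3 the lowest of all 6. The log2 difference was -0.18 ± 0.33 (SE), and 0.32 in the 4 arrays with a low ratio. The direction of the Nr1h3 difference therefore depended on the arrays used. By group means the KO stood at 90.3% of WT for Nr1h3 and at 429.7% for Abca1.

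Mylip, the ubiquitin ligase of lipoprotein receptors, read 550.0, 486 and 451 in WT and 812, 698 and 342 in the KO. KO arrays 1 and 2 were above all WT arrays, and KO array 3 was below them all. The log2 difference was 0.23 ± 0.36 (SE) over all arrays, and 0.70 in the 4 arrays with a low ratio. Lpcat3, the phospholipid-remodelling acyltransferase, read 1257.5, 740.5 and 621 in WT and 988, 489 and 143 in the KO. Its KO values spanned 6.91-fold from highest to lowest, against 2.02-fold in WT, and the groups overlapped. The log2 difference of Lpcat3 was -0.98 ± 0.59 (SE), and 0.24 in the 4 arrays with a low ratio.

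Srebf1, the regulator of fatty acid synthesis genes, read 5484, 1918 and 1384 in WT and 2289, 1741 and 1167 in the KO. WT array 1 stood far above the other 5 arrays, which overlapped. The means were 2929 ± 2229 (SD, n = 3) and 1732 ± 561 (SD, n = 3), and the log2 difference was -0.55 ± 0.49 (SE). It was 0.03 without WT array 1 and -0.09 in the 4 arrays with a low ratio. Abca1 and Srebf1 share the promoter letters shown above, and their differences were 2.06 and -0.55. Fasn, which has the same letters, differed by -0.54 ± 0.39 (SE; limma adjusted p = 0.435), and by 0.04 in the 4 arrays with a low ratio.

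**Figure D2:**
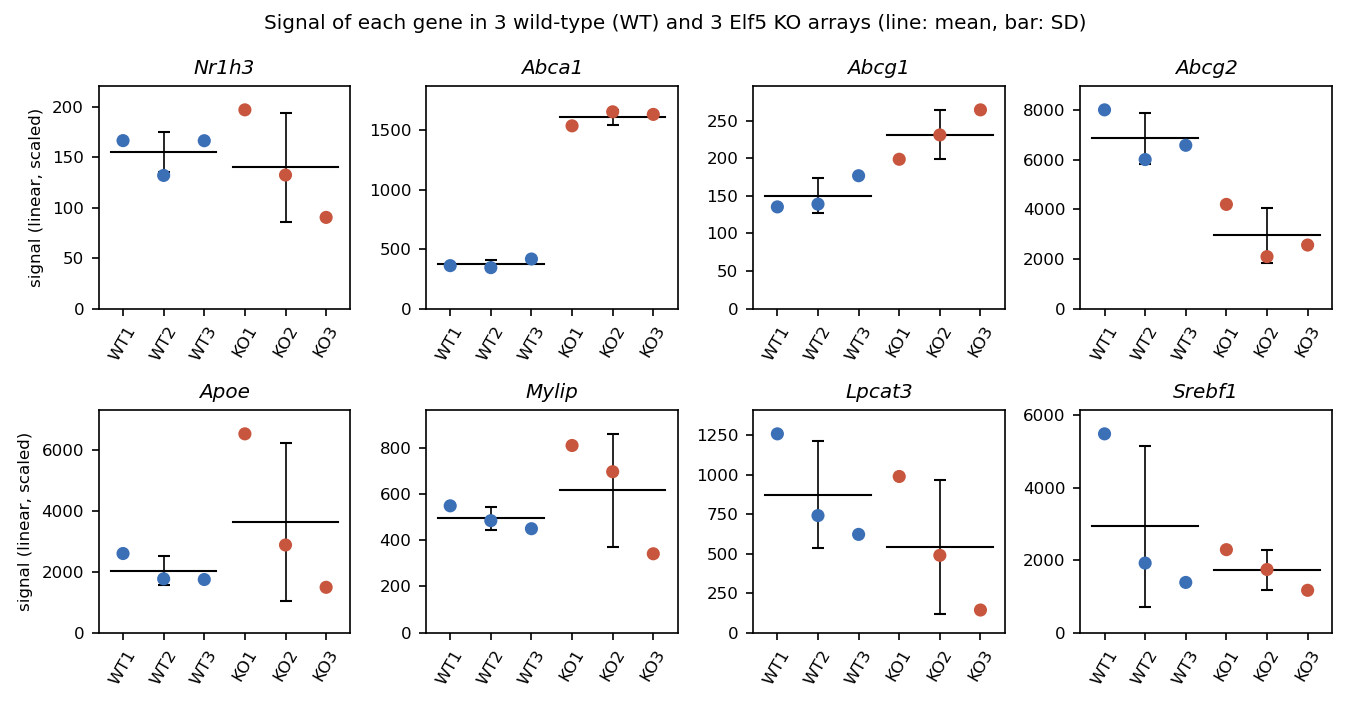
Linear signal of the probe set standing for each of the 8 genes in WT (blue) and KO (red) arrays, with group means (lines) and SD (bars), n = 3 arrays a group. Abca1 and Abcg1 are above and Abcg2 is below WT in every KO array, and the other 5 genes have overlapping groups.

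Across the 8 genes, 4 had a higher and 4 a lower KO mean. The median log2 difference was 0.02, beside 0.06 over all genes tested, so the list did not move one way. Groups did not overlap for 2 genes that were higher, Abca1 and Abcg1 (16.7% of all genes tested), and for 1 that was lower, Abcg2 (10.6%). In the limma fit over all genes Abca1 was the 1 gene of the 8 called (adjusted p under 0.05), where 1.24% of all genes were called and 1.13% were called higher. The paired fit called Abca1 higher and Abcg2 lower, where it called 12.2% of all genes, 7.7% higher and 4.53% lower. Nothing is read from these counts, since the list was proposed with this comparison known. The Abca1 call was absent without WT array 1, 2 or 3 or KO array 2. Its difference there was 2.04, 2.01, 2.14 and 2.04, and 9, 0, 1 and 1 genes were called in all. With the mean of all probe sets of a gene the call was absent too, at a difference of 0.99, while 75 genes were called in all. With the Gapdh ratio as a covariate it was absent at a difference of 2.02, where 0 genes were called. It was absent in the 4 arrays with a low ratio as well, where no gene was called and 1013 had an unadjusted limma p under 0.05.

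In 5 of the 8 genes (Nr1h3, Apoe, Mylip, Lpcat3 and Srebf1) KO array 1 was above KO array 2 and KO array 2 above KO array 3, as in 24.8% of all genes tested. These are the genes with overlapping groups. In 6 of the 8, the same 5 and Abcg2, KO array 3 was below every WT array, as in 38.1% of all genes tested. The part of RNA integrity in this order was not tested. In the 4 arrays with a low ratio 6 of the 8 genes were higher in the KO, with a median of 0.35, beside 0.04 over all genes. Abcg2 and Srebf1 were the exceptions.

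**Figure D3:**
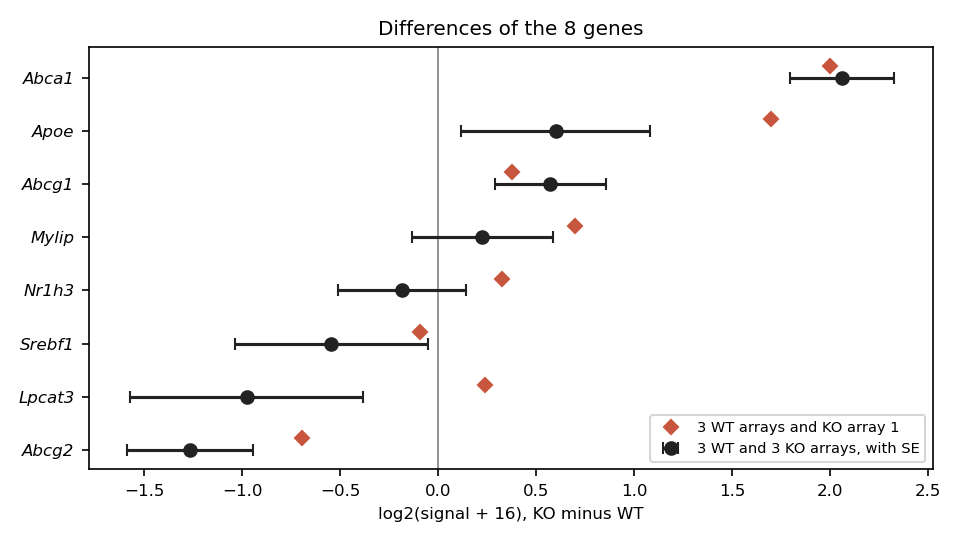
Log2 difference of the 8 genes, KO minus WT, over all 6 arrays (black, with limma's standard error) and over the 3 WT arrays and KO array 1 (red diamonds, 1 KO animal). Abca1 is near 2 in both, Abcg2 is below 0 in both, and Nr1h3 and Lpcat3 lie on opposite sides of 0.

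Of 16 other LXR targets listed, 15 had a probe set annotated to that gene alone, and 12 were bright enough to test. Of these 1 rose, Pltp, where 1.13% of all genes were called higher. On average 9 of the 12 were lower, as were 5028 of all 10916 genes tested. The median was -0.53 here, but -0.15 after quantile normalization and 0.11 in the 4 arrays with a low ratio. Pltp, which transfers phospholipids between lipoproteins, read 1097, 1080 and 661 in WT and 2951, 2549 and 3461 in the KO, and rose by 1.67 ± 0.31 (SE; limma adjusted p = 0.0446). A dimmer Pltp probe set differed by 0.73. Mlxipl, which encodes the glucose-sensing factor ChREBP, read 96.9 to 134 in WT and 255 to 312 in the KO, a difference of 1.17 ± 0.28 (SE; limma adjusted p = 0.0673, and 0.0257 in the paired fit). Rnf145, a sterol-responsive ubiquitin ligase, differed by -0.69 ± 0.29 (SE; limma adjusted p = 0.207). In the paired fit 2 of the 12 rose, Pltp and Mlxipl (7.7% of all genes), and 1 fell, the desaturase gene Scd2 (4.53%). Scd2 differed by -0.96 ± 0.23 (SE of the paired fit, adjusted p = 0.0348), but its groups overlapped, and in the 4 arrays with a low ratio it differed by 0.19. Scd1, Fasn, Acaca and Lpl, genes of fatty acid synthesis and uptake, differed by -0.64, -0.54, -0.53 and -0.54 over all arrays, and none of these 4 passed in either fit. In the 4 arrays with a low ratio Scd1 and Lpl differed by -0.27 and -0.15, and Fasn and Acaca by 0.04 and 0.0064. A lower KO level was thus not seen there on the probe sets standing for Fasn and Acaca. Dimmer probe sets differed over all arrays by -2.12 for Acaca, -1.23 for Scd1, -2.46 and -2.55 for Scd2 and -0.31 for Lpl. Those dimmer probe sets were not analysed in the 4 arrays with a low ratio.

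Of 7 other Abca and Abcg transporters tested, 1 rose (1.13% of all genes), Abca9, a gene related to Abca1. It read 122, 119 and 135 in WT and 455, 399 and 631 in the KO, and rose by 1.83 ± 0.29 (SE; limma adjusted p = 0.0356). A second Abca9 probe set, with a mean signal of 12.8, differed by -0.01. Abca8a, of the same subgroup of transporters, read 188 to 259 in WT and 395 to 783 in the KO, a difference of 1.37 ± 0.34 (SE; adjusted p = 0.0750, paired 0.0200). Over the 4 arrays with a low ratio its difference was 0.75. Abca2, a transporter of late endosomes, differed by -1.16 ± 0.56 (SE; adjusted p = 0.259) and by 0.21 in the 4 arrays with a low ratio. The list's median was 0.43, and 0.21 in those 4 arrays. The calls of Pltp and Abca9 were both absent without WT array 1, 2 or 3, KO array 2 or KO array 3. Differences there were 1.43 to 1.79 for Pltp and 1.65 to 1.97 for Abca9. Both calls were also absent with the mean of all probe sets of a gene, at differences of 1.20 and 0.91. With the Gapdh ratio as a covariate they were absent at differences of 1.56 and 1.63. The Pltp call was absent with no filter on dim genes as well (limma adjusted p = 0.0637). In the 4 arrays with a low ratio Pltp and Abca9 differed by 1.66 and 1.74.

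**Figure D4:**
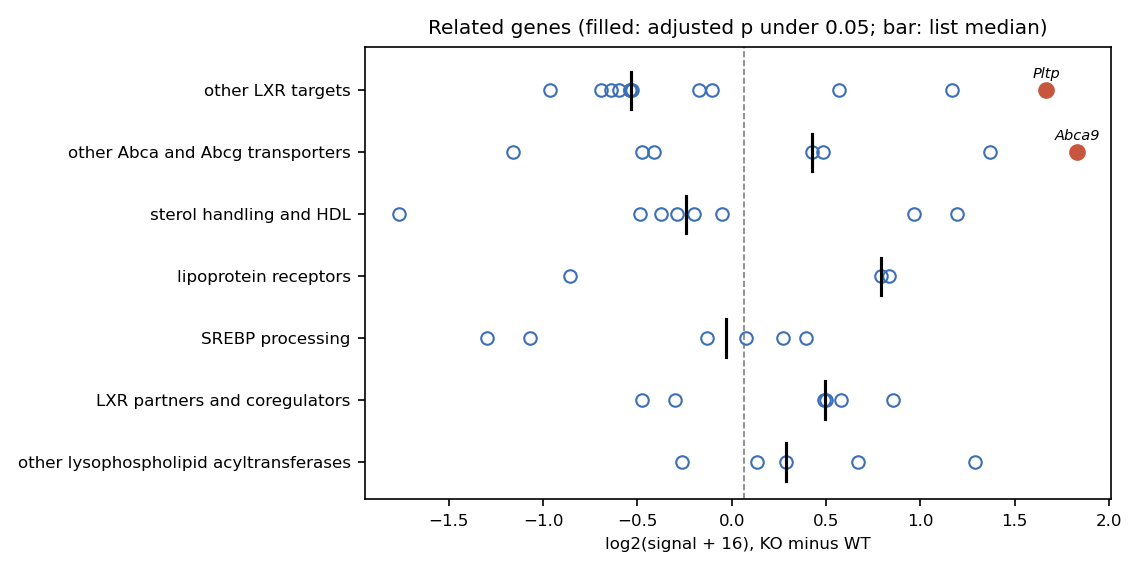
Log2 difference, KO minus WT, of each tested gene (circles) in 7 related lists, with the list medians (bars) and the median of all genes tested (dashed line). Filled circles mark Pltp and Abca9, the genes of these lists with an adjusted p under 0.05.

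Of 29 genes tested in the 6 remaining lists of sterol and LXR biology none passed in the limma fit over all genes, and 7 (24.1%) had an unadjusted p under 0.05, near the 21.8% of all genes tested. Among 8 tested genes of sterol handling, Cav1, which coats caveolae, differed by 1.19 ± 0.37 (SE) and rose in the paired fit (adjusted p = 0.0231), where 7.7% of all genes did. Scarb1, the HDL receptor, differed by -1.76 ± 0.61 (SE) and fell in the paired fit (adjusted p = 0.0295). Its groups overlapped, at 1348 to 2522 in WT and 1506, 556.5 and 199.6 in KO arrays 1, 2 and 3. It differed by -0.35 in the 4 arrays with a low ratio, and by -0.31 and -0.55 over all arrays on its other probe sets. Nceh1, which hydrolyses cholesteryl esters, differed by 0.96 ± 0.43 (SE), and by 0.21 in the 4 arrays with a low ratio. Of the oxysterol enzymes only Cyp27a1, which makes 27-hydroxycholesterol, was bright enough to test, and its groups of 139 to 213 and 252 to 267 did not overlap (0.52 ± 0.28, SE; adjusted p = 0.310).

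The 3 lipoprotein receptors tested each had groups that did not overlap, as 27.3% of all genes tested did. Lrp8 was lower (-0.85 ± 0.28, SE), and Lrp1 and Vldlr were higher (0.83 ± 0.30 and 0.79 ± 0.33, SE), with limma adjusted p from 0.127 to 0.208. The difference of Vldlr was 0.26 in the 4 arrays with a low ratio. Vldlr and Lrp8 encode receptors that the Mylip product acts on. The list of SREBP processing had 6 genes tested. Scap, which escorts SREBP proteins to the Golgi, differed by -1.07 ± 0.47 (SE), Srebf2, which encodes SREBP2 itself, by -1.30 ± 0.65 (SE), and Insig2, which retains Scap in the endoplasmic reticulum, by 0.40 ± 0.30 (SE). These differences were 0.11, -0.27 and 0.13 in the 4 arrays with a low ratio. Dimmer Insig2 probe sets differed over all arrays by 0.92 and -0.11, the latter with a mean signal of 311 beside 354 for the brightest.

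LXR partners and coregulators had overlapping groups in all 6 genes tested. The retinoid X receptor Rxra differed by -0.48 ± 0.30 (SE), the acetyltransferase Ep300 by 0.85 ± 0.42 (SE) and the methyltransferase Prmt3 by 0.58 ± 0.34 (SE). With the 4 low-ratio arrays alone these were -0.11, -0.11 and 0.06, and the list's median, 0.49 over all arrays, was -0.05. Among 5 acyltransferases related to Lpcat3, Mboat2 differed by 1.29 ± 0.44 (SE) and rose in the paired fit (adjusted p = 0.0234), though its groups overlapped and its difference was 0.45 in the 4 arrays with a low ratio. Lpcat2 differed by 0.67 ± 0.32 (SE) and Mboat1 by 0.29 ± 0.34 (SE), the latter by -0.18 in those 4 arrays.

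Macrophages, fibroblasts and adipocytes also express Abca1, and some, not all, markers of these cells were higher in the KO. For the marker counts that follow, the limma fit called 1.13% of all genes higher, and the paired fit 7.7% higher and 4.53% lower. Of all genes tested 21.8% had an unadjusted limma p under 0.05 and 53.9% a higher KO mean. Of 12 macrophage markers 9 had a higher mean, 2 rose in the limma fit, the scavenger receptor genes Cd163 and Mrc1, and 5 rose in the paired fit, these and Csf1r, Lyz2 and Mpeg1. The list's median was 0.56, and 1.30 in the 4 arrays with a low ratio. Their summed signal was 8922 to 11530.3 in WT and 12010.3 to 18176 in the KO, and no marker was at 0. Csf1r is the receptor of macrophage growth. Its dimmer probe sets differed by 1.39 and -0.15. The brightest read 686 to 1477 in WT and 1608 to 3816 in the KO. By contrast Cd68 read 133 to 151 in WT and 426, 287 and 119 in KO arrays 1, 2 and 3, and Adgre1 read 366 to 594 and 827, 378 and 290.4. Cd14, a co-receptor for lipopolysaccharide, read 2895 to 6214 in WT and 2060 to 2875 in the KO, lower without overlap (-0.80 ± 0.34, SE; limma adjusted p = 0.209). The complement genes C1qa and C1qc differed by -0.65 ± 0.83 (SE) and -0.04 ± 0.51 (SE). In the 4 arrays with a low ratio Cd68, Adgre1, C1qa and C1qc differed by 1.51, 0.86, 1.63 and 1.02. Apoe, Cd68 and Adgre1 were thus each highest in KO array 1 and lowest in KO array 3, and C1qa, C1qb and C1qc followed the same pattern. For C1qb this holds for the probe set standing for it, which differed by 0.31 over all arrays. Its other probe sets, 1 of them as bright, differed by 1.41 and 0.99, and their order among the arrays was not analysed here. Other markers had another order: Csf1r, Mpeg1 and Cd163 were highest in KO array 3 (3816, 1114 and 686.5), and Mrc1 in KO array 2 (821). The bright Abca1 probe set was level across the KO arrays, whereas its dimmer probe sets were lowest in KO array 3 (13.7 and 6.4). The part of macrophages in the Abca1 and Apoe values was not tested.

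All 7 fibroblast markers had a higher mean (median 1.08). In the limma fit 2 rose, Dpt and Pdgfra, and in the paired fit 4 rose, these and Col1a1 and Col1a2. Their summed signal was 11625 to 18681 in WT and 20584 to 35069 in the KO. Groups did not overlap for Dpt and Pdgfra only, where 16.7% of all genes tested were higher without overlap. Dcn differed by 0.51 ± 0.44 (SE), with KO array 3 (2013) below every WT array, and by 1.16 in the 4 arrays with a low ratio. Col1a1 differed by 1.08 ± 0.43 (SE; limma adjusted p = 0.193, and 0.0385 in the paired fit). Dimmer probe sets of Pdgfra differed by -0.24 and 0.76, and its call was absent with the mean of all its probe sets (0.77). All 7 adipocyte markers had a higher mean as well (median 1.23), with sums of 18145 to 21895 and 27546 to 35598, but none passed in the limma fit (4 at an unadjusted p under 0.05) and 4 rose in the paired fit. Both sets of 4 were Retn, Pparg, Lep and Plin4, with differences of 1.70, 1.23, 2.22 and 1.59, of which Pparg and Plin4 were 0.74 and 0.67 in the 4 arrays with a low ratio. Adipoq differed by 0.56 ± 0.30 (SE), and by 0.98 in those 4 arrays. Plin1 was not analysed here. No marker of either list was at 0, and their part in the Abca1 difference was not tested.

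Abcg2 is a gene of luminal epithelium. Of 8 luminal markers 5 were lower on average and none passed in the limma fit (0 at an unadjusted p under 0.05, and 1 higher, Cdh1, and 1 lower, Lalba, in the paired fit), with a median of -0.08, and of -0.27 in the 4 arrays with a low ratio. Their sum was 39987 to 86937 in WT and 36153 to 47120 in the KO, so these ranges overlapped, unlike the Abcg2 signals. Lalba, the milk protein gene of α-lactalbumin, differed by -1.33 ± 0.65 (SE; paired adjusted p = 0.0136), beside -1.27 for Abcg2, with overlapping groups. The milk protein genes Csn2 and Wap differed by -0.68 ± 0.40 (SE) and -0.51 ± 0.39 (SE), and the cadherin gene Cdh1 by 0.93 ± 0.53 (SE; paired adjusted p = 0.0422). Krt8, a keratin of luminal cells, differed by 0.27 ± 0.32 (SE). Lalba, Csn2, Wap, Cdh1 and Krt8 differed in the 4 arrays with a low ratio by -0.35, -0.40, -0.32, -0.13 and -0.21. The part of luminal cells in the Abcg2 difference was not tested. Myoepithelial and endothelial sums overlapped between the groups as well. Of the 6 myoepithelial markers 3 were higher and none passed in the limma fit (1, Trp63, at an unadjusted p under 0.05). Trp63 rose in the paired fit (adjusted p = 0.0486). Of 6 endothelial markers 1 rose, Vwf, and Pecam1 differed by -0.49 ± 0.55 (SE), and by 0.14 in the 4 arrays with a low ratio. The calls of Cd163, Mrc1, Dpt, Pdgfra and Vwf were absent without WT array 1, 2 or 3, KO array 2 or KO array 3, with differences of 1.73 to 1.98, 1.52 to 1.80, 1.55 to 2.10, 1.56 to 1.93 and 1.32 to 1.70. Those of Pdgfra and Vwf were also absent where the linear mean signal chose the probe set, set the filter or did both, with adjusted p of at most 0.0525 for each. Those of Dpt, Pdgfra and Vwf were absent with a pseudocount of 1 and with no filter on dim genes. Dpt was not called with the mean of all probe sets of a gene either. With the Gapdh ratio as a covariate all these calls were absent. In the 4 arrays with a low ratio Cd163, Mrc1, Dpt, Pdgfra and Vwf differed by 1.64, 1.51, 1.88, 1.22 and 1.30.

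**Figure D5:**
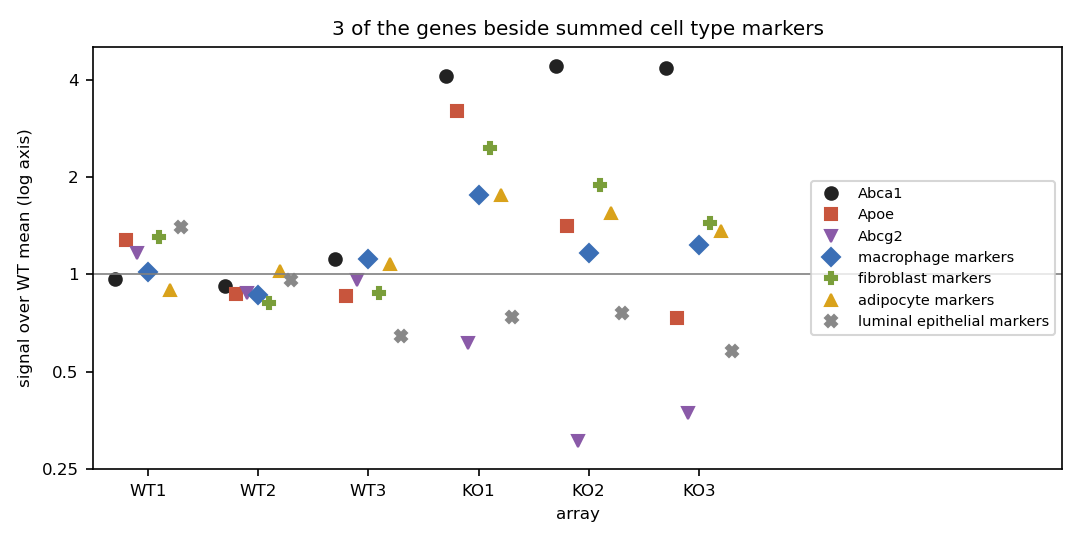
Signal of Abca1, Apoe and Abcg2 and the summed signals of 4 marker lists in each array, each divided by its mean over the 3 WT arrays (log axis). Abca1 lies near 4 in all KO arrays, above every marker sum. Apoe is above 3 in KO array 1 and below 1 in KO array 3. Abcg2 lies below the luminal marker sum in every KO array. The sums weigh bright markers most: Cd14 read 6214 of the macrophage sum of 11530 in WT array 3. In WT array 1 Lalba, Csn2 and Wap read 27721, 27414 and 20172.5 of the luminal sum of 86937. Single markers are not shown, and by log2 difference Lep (2.22) lay above and Cd163 (1.93) below Abca1 (2.06).

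Tested genes outside the list were ranked by likeness to Abca1 over the 6 arrays, as the root mean square difference of centred log2 values. Clone and provisional gene names were passed over. The nearest were Aox1, Cmbl and Cpe (0.18, 0.19 and 0.19). Aox1, an aldehyde oxidase, read 63.6 to 98.6 in WT and 292 to 412 in the KO. Cpe, a carboxypeptidase of prohormone processing, read 61.9 to 103 in WT and 323 to 420 in the KO. For Abcg2 the nearest by the same ranking were Tmem64, Dcst2 and Cysrt1 (0.11, 0.13 and 0.13). Tmem64 read 2144, 1692 and 1926 in WT and 1161, 649 and 613 in the KO. Like Abcg2, these 3 genes had KO array 1 nearest to WT, which follows from choosing them by their likeness to Abcg2.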

How the data were processed

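Total RNA of 6 whole glands was hybridised to 1 array each. The deposited values are linear signal intensities of 45101 probe sets, for which the submitters' processing notes name MAS5 and affy as tools the authors used, without versions. The values show a mean of 150 in every array after trimming 2% at each end. Detection calls and array images were not used here, no build is named in the labels or the file, and precision is limited by the number of arrays.

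Gene names come from the platform annotation, and the probe set with the highest mean log2 value stood for a gene. Signals were tested as log2(signal + 16) with limma 3.58.1 in R 4.3.3 (lmFit, eBayes with an intensity trend). Genes under the 40th percentile (about 43.8) were left out, which kept 10916. The linear mean was tried first for both choices, and the log2 mean was adopted after its counts were seen, to match an earlier processing of these data. P-values were adjusted over all of these (Benjamini-Hochberg, threshold 0.05), and errors of differences are moderated standard errors. Promoter sequences are RefSeq's.

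The listed genes and the related lists were chosen with earlier results of these data known. Text names the listed genes, Elf5, each related list's called genes and its 3 smallest p, and 8 fixed markers (Adgre1, Csf1r, Cd68, Adipoq, Plin1, Krt8, Col1a1 and Pecam1). It also names the 3 genes outside the list most like Abca1 and Abcg2, with clone and provisional names passed over. Scd1, Scd2, Fasn, Acaca, Lpl and the other markers were named after their values were seen. Same-numbered arrays deviated together (correlations of 0.46, 0.34 and 0.29), which the labels do not explain, so a paired fit (replicate number as block) is given where it changes a call. The labels speak of biological replicates of animals. Alternatives covered the pseudocount, filter, normalization, probe sets, variance trend, pairing, RNA quality, leaving out each array and, added after seeing the data, the scale of the mean.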

Additional observations from a re-analysis of the deposited data

How the results depend on the processing

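Over the 19 alternatives, of which 3 were added after seeing the data, Abca1, Abcg1, Abcg2 and Apoe kept their direction in all. Lpcat3 kept it in 17, Mylip in 18, Srebf1 in 18 and Nr1h3 in 16. Abca1 was called in 12 of the 19 and ranged from 0.99 (mean of its probe sets) to 2.14, and Abcg2 ranged from -1.55 (without KO array 1) to -0.70. The median difference of the 8 genes, 0.02, moved by less than the spread between arrays in all 19, from -0.22 to 0.35. The number of genes called among all, 135, was 85 with a pseudocount of 1, 56 with no filter on dim genes, 75 with the mean of a gene's probe sets, 1335 with the replicate block, and 0 both with the Gapdh ratio as a covariate (1112 at an unadjusted p under 0.05) and in the 4 arrays with a low ratio (1013). Leaving out 1 array gave 0 to 1206 genes, the highest without KO array 1. The added alternatives put the linear mean signal in place of the log2 mean. They gave 118 genes where it chose the probe set, 125 where it set the filter and 119 with both, and left the 8 genes' differences as they were. The adopted log2 mean thus gave the most calls of these 4. The causes were not tested.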
